A study of Rattus norvegicus with 6 samples.

Results

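B cells of the rat hippocampus are described here from single-cell RNA sequencing of 6 samples, 3 from male rats 2 months after whole-brain irradiation with 20 Gy and 3 from male control rats. Strain and age were not given in the sources used here. The tissue was minced and digested, red cells were lysed, dead cells were removed, and no sorting of B cells was described, so the suspension could hold any cell type that survived dissociation. Transcripts were counted as unique molecular identifiers (UMIs), the tags that mark single captured molecules. A barcode was called a B cell when it had at least 1000 UMIs, at most 20% mitochondrial UMIs, at least 3 UMIs of Cd79a and Cd79b together, none of Cd3e, Cd3d or Cd3g, and at most 3 C1q UMIs per 1000. This found 54 B cells among 46952 kept barcodes, of 58078 in all. Library numbers could be tied to 0 of the 6 labelled samples, so irradiated and control rats were not compared, and the pooled matrix was treated as 1 sample with no replicates and no test.

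B cells carry a surface antigen receptor, a membrane immunoglobulin held by the signalling chains Cd79a and Cd79b, and they present captured antigen to helper T cells on MHC class II molecules. Naive and memory B cells circulate between blood and lymphoid organs, while plasma cells, their antibody-secreting descendants, turn most of their synthesis to immunoglobulin. In a healthy brain B cells are rare in the tissue itself and are found mainly in the meninges and vessels. The dissection described in the labels does not separate these compartments.

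The promoters of the MHC class II chains are shown first because 8 of the 12 genes of the class II list that were tested were higher in B cells than in T cells, against 6.97% of all genes tested, as described below. They share a short element, the Y box, which is bound by the factor NF-Y and lies beside the X box bound by the RFX complex. Each window below is from RefSeq on build GRCr8, reads 5′ to 3′ on the strand of the gene, and has the letters CTGATTGG in capitals. RT1-Da lies on the plus strand at chr20:4515303-4515390, RT1-Db1 on the minus strand at chr20:4560218-4560305, RT1-Ba on the plus strand at chr20:4576951-4577038 and RT1-Bb on the minus strand at chr20:4604155-4604242.
RT1-Da: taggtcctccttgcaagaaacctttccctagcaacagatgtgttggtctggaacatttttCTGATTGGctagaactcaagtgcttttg
RT1-Db1: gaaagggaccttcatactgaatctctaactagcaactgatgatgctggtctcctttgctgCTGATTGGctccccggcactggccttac
RT1-Ba: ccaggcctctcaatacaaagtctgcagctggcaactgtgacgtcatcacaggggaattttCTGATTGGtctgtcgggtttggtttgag
RT1-Bb: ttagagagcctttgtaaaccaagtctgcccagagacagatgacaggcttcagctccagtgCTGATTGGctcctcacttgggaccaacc

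The letters CTGATTGG, searched on both strands, stood in 7 of the 9 class II chain genes that have a promoter in the table, against 3.50% of all 33469 promoters of the same length. The matches began 46 to 120 bases before the annotated start. The shorter core GATTGG, which lies within the longer motif, stood in 12 of the 18 genes of the class II list that have a promoter, against 14.8% of all promoters. Cd74, which encodes the invariant chain that guards the peptide groove, had neither in its window. These matches describe letters and not binding.

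The share of B cells among kept barcodes was 0.115% (95% exact binomial interval 0.0864 to 0.150%, counting error only). Libraries 1 to 6 held 5, 10, 19, 4, 8 and 8 B cells, which were 0.0874, 0.112, 0.188, 0.0476, 0.0961 and 0.146% of their kept barcodes. The intervals of all 6 libraries overlapped, from 0.0130 to 0.122% in library 4, the lowest, to 0.113 to 0.293% in library 3, the highest. T cells, called by at least 2 Cd3 UMIs and no Cd79 UMI, numbered 536 or 1.14% of kept barcodes. B cells made up 9.15% of B and T cells together, and 14.7, 16.1, 9.18, 5.06, 5.30 and 14.0% in libraries 1 to 6. Libraries 4 and 5 had the lowest of these shares and library 2 the highest. No library held 20 B cells, the number set for an account of one library alone, so values by library rest on 4 to 19 cells.

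**Figure D1:**
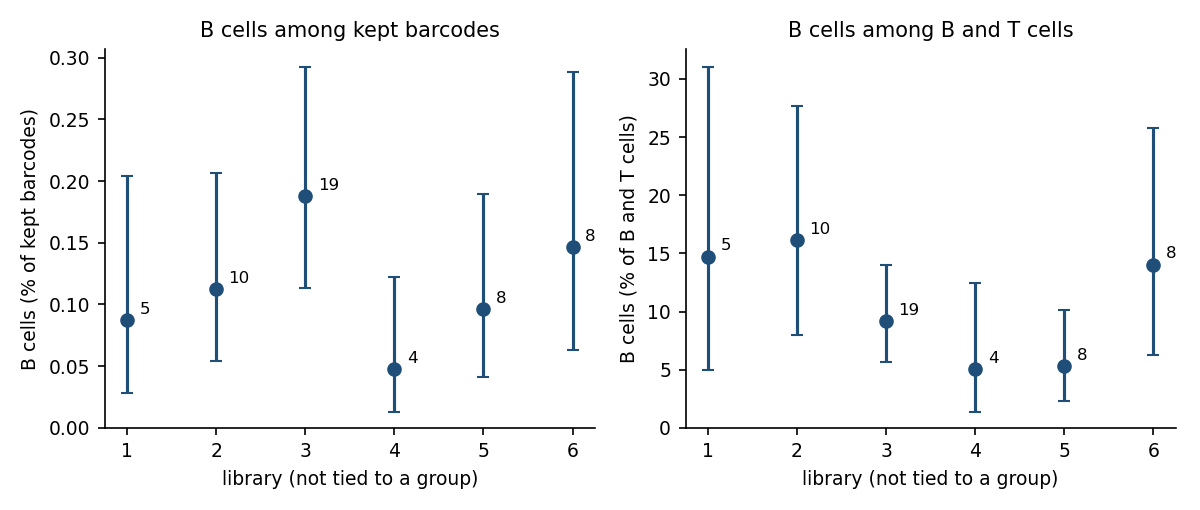
B cells as a percentage of kept barcodes (left) and of B and T cells together (right) in each of the 6 libraries, with 95% exact binomial intervals and the number of B cells beside each point. Library 3 has the highest share of kept barcodes, 0.188%, and library 4 the lowest, 0.0476%, with overlapping intervals.

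Few barcodes lay near the Cd79 limit of the rule, while members ran close up to its C1q limit. Members had 4 to 86 UMIs of Cd79a and Cd79b, with a median of 13.5, and 0 barcodes that met the other criteria had a sum of 3. Just outside, 8 barcodes had a sum of 2, and these had 0 to 4 UMIs of Cd74. Cd79a was found in each member and Cd79b was at 0 in 3. At the C1q limit, the highest member had 2.92 C1q UMIs per 1000 and the lowest barcode kept out had 3.19. Of the 54 members, 5 had over 2 C1q UMIs per 1000, and a limit of 1 would leave 41. Of 65 kept barcodes with at least 3 Cd79 UMIs, 2 had Cd3 UMIs, 10 had too many C1q UMIs and 1 of these had both. The members were chosen by these Cd79a, Cd79b, Cd3 and C1q values, which therefore support nothing. None of the 54 was among the 3076 barcodes called doublets by scrublet, and no barcode sequence occurred in 2 members, while 1 member shared its sequence with a barcode of another library.

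Over the 54 cells together, the B cell label held against markers that the rule did not use. The deepest barcode also held many transcripts of blood vessel lining, as described below. B cells had a median of 2504.5 UMIs, against 4455 in T cells and 5078 in C1q-high barcodes, the microglia and macrophages by their complement transcripts. Ms4a1, which encodes CD20, had 60 UMIs in 28 of the 54 cells and 0 in the 536 T cells, where 3 cells would be 0.560%. Cd74 was found in 53 B cells and in 30.0% of T cells. Thinned to 1000 UMIs a cell, Cd74 remained in 96.3% of B cells against 9.89% of T cells, and Ms4a1 in 25.9% against 0. Pax5, the factor that keeps B cell identity, was found in 9 cells, with 0 UMIs in T cells. Of the 7 T cell markers with a symbol in the files other than the Cd3 genes of the rule, 6 were at 0 in the B cells, and the 7 summed to 4.10 CPM (UMIs of a gene per 1000000 UMIs, summed over the cells) in B cells against 2449 CPM in T cells. Neutrophil markers summed to 8.20 CPM in B cells, with 10 of 12 at 0.

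Transcripts typical of other brain cells were found in B cells and in T cells. Apoe, abundant in astrocytes and microglia, was found in all 54 B cells, from 1 to 475 UMIs, and had 6161 CPM against 5488 CPM in T cells and 20123 CPM in all other kept barcodes. The astrocyte markers summed to 9603 CPM in B cells and 10097 CPM in T cells, and the microglia and macrophage markers other than the C1q genes of the rule to 1415 CPM in B cells and 956 CPM in T cells. P2ry12, a microglial receptor, had 20.5 CPM in B cells, against 23.1 CPM in T cells. These levels were not subtracted, and their part in the values below was not tested.

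Among the 54, 4 barcodes stood apart, and counts of called genes below are given with and without them. Levels of single genes are those of the 50 others unless all 54 are named. They are the 3 over 10000 UMIs, which held 43.1% of the 243775 UMIs of all B cells, and 1 with 0 UMIs of Cd74. They were singled out after their values were seen. The other 50 had 1173 to 7777 UMIs, 131164 in all.

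The pair with 22154 UMIs in library 2 and 20171 UMIs in library 6 were rich in transcripts of antibody secretion. The first had 887 UMIs of Jchain, which joins the chains of IgM and IgA polymers, 51 of Mzb1, an endoplasmic reticulum protein of plasma cells, 12 of Tnfrsf17, the survival receptor BCMA, 13 of Ighg1 and 0 of Ighm. The second had 1665 UMIs of Ighm, 129 of Jchain, 54 of Mzb1 and 6 of Ighg1. An unnamed gene, AABR07060872.1, had 5174 and 4897 UMIs in them, against 3 to 38 in the other 50. Each of the 2 had 19 of the 21 plasma cell genes of the list, which together took 50194 and 20227 CPM, against a median of 629 CPM in the other 50. The barcode of library 2 also had 13 of the 15 microglia and macrophage markers, C1q genes included, at 6364.5 CPM. In the other 50 these markers had a median of 1634 CPM and ran from 0 to 11705 CPM. The barcode of library 6 also had 21 UMIs of Mki67 and 12 of Top2a, genes of dividing cells, and 29 of the 34 cell cycle genes. No other member had a UMI of Mki67 or Top2a, and the depth of the others limits this: 3 counts over the 50 would be 22.9 CPM.

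The barcode with 0 Cd74, of 7627 UMIs in library 5, had transcripts of B cell precursors. It held 20 UMIs of Vpreb2 and 18 of Igll1, which form the surrogate light chain of the pre-B cell receptor, 10 of Dntt, which adds bases at immunoglobulin joints, 1 of Rag1 and 34 of Ebf1, an early B lineage factor. Vpreb2, Igll1, Dntt and Rag1 had no UMI in any of the other 53. It held 0 UMIs of AABR07060872.1 and of RT1-Da, 13 of Ighm, and 6 UMIs in all over the class II list. Its progenitor genes came to 15340 CPM over 15 of 23 genes, against a median of 391 CPM in the 50.

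The deepest barcode, 62659 UMIs in library 5, held B cell transcripts in numbers like those of single B cells, and many transcripts of blood vessel lining. It had 16 UMIs of Cd79a, 41 of Cd74, 12 of Ighm, 20 of AABR07060872.1 and 17 of RT1-Da, within the range of the other 50. It also had 173 UMIs of Itm2a, 164 of Col4a1, a basement membrane collagen, 68 of Cd93, 42 of Slco1a4, a transporter of the blood-brain barrier, and 24 of Pecam1. All 5 endothelial markers with a symbol in the files were found in it, at 4517 CPM. Its B cell markers, with Cd79a and Cd79b among them, came to 1564 CPM, against 6630 to 44048 CPM in single cells of the 50. The endothelial markers summed to 1222 CPM over the 54 B cells and 107 CPM over the 50, against 82.7 CPM in T cells.

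**Figure D2:**
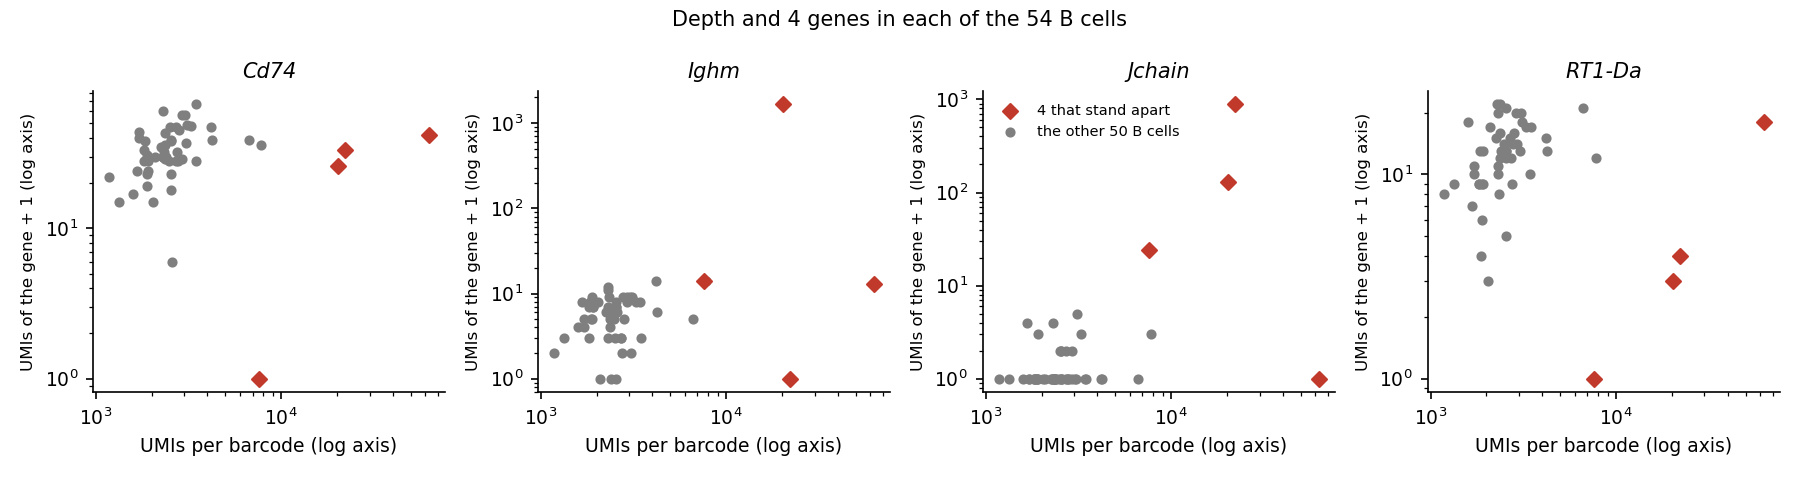
UMIs of Cd74, Ighm, Jchain and RT1-Da, with 1 added, against all UMIs of the barcode, for each of the 54 B cells on log axes. The 4 barcodes that stand apart are diamonds: 2 have 129 and 887 Jchain UMIs, 1 has no Cd74, and the deepest has Cd74, Ighm and RT1-Da within the range of the other 50.

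Against all other kept barcodes, a gene was called when the log2 ratio of its CPM, with 10 CPM added to both sides, was 2 or more in either direction. Of 2470 genes tested, 6.68% were higher and 8.50% lower in the 54 B cells, and without the 4 barcodes 7.83% of 1239 were higher and 11.0% lower. Against T cells, 6.97% of 2225 genes were higher and 4.31% lower, and without the 4 barcodes 5.94% of 1077 were higher and 5.94% lower. The median log2 ratio over all genes tested lay between -0.01 and 0.06 in these 4 comparisons. All these ratios compare sums of cells, and genes with few UMIs carry wide counting intervals.

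Of the B cell receptor and coreceptor genes other than Cd79a and Cd79b, which the rule used, 18 had a symbol and 8 were tested against all other kept barcodes. Of these, 5 were higher and 0 lower, with a median log2 ratio of 3.81. Without the 4 barcodes it was 5 of 7, with a median of 4.70. Among all genes tested, 6.68% were higher and 8.50% lower, and without the 4 barcodes 7.83% and 11.0%. Ighm, the heavy chain of IgM, had 0 to 13 UMIs in the 50, with a median of 5, and was found in 47 of them and in 6.72% of T cells. Its level was 1937 CPM in the 50, against 28.6 CPM in the other kept barcodes and 17.3 CPM in T cells, a log2 ratio of 5.66 over the other barcodes. Over all 54 it was 7975 CPM, since 1665 of the 1944 UMIs came from a single barcode. By library the level of Ighm in the 50 ran from 1704 CPM in library 2 to 2396 CPM in library 4, with overlapping counting intervals. AABR07060872.1 was found in all 50 and in 0.373% of T cells, at 7319 CPM (95% Poisson interval 6863 to 7797), against 3.14 CPM in the other kept barcodes. By library it ran from 5768 to 8016 CPM.

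Among the coreceptors, Ms4a1 had 419 CPM in the 50 (316 to 546), against 0.0205 CPM in the other barcodes. Fcrla, an intracellular Fc receptor-like protein, had 374 CPM against 7.92 CPM in other barcodes. Fcer2, the low-affinity IgE receptor CD23 of resting follicular B cells, had 290 CPM against 0.0102 CPM in other barcodes, and was found in 22 of the 50. Over all 54, Ms4a1 had 246 CPM. The tetraspanins Cd37 and Cd53, shared by most leukocytes, had log2 ratios of 1.33 and 0.97 and were not called. Cd22, an inhibitory coreceptor, was found in 5 of the 50 and had 38.1 CPM, too few UMIs to be tested. Fcmr, the receptor for IgM, was found in 40 of the 50 and in 0.746% of T cells, at 823 CPM against 25.1 CPM in other barcodes.

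Genes that carry the receptor's signal were higher in B cells than in T cells for 7 of the 12 tested. Against all other kept barcodes 4 of 13 tested genes were higher and 0 lower, and without the 4 barcodes 4 of 9. Against T cells, 0 were lower, and without the 4 barcodes 6 of 9 were higher. Among all genes tested, 6.68% were higher and 8.50% lower than in other barcodes, and 6.97% and 4.31% against T cells. Without the 4 barcodes these shares were 7.83% and 11.0%, and 5.94% and 5.94%. Ralgps2, an exchange factor for Ral, had 442 CPM in the 50, against 4.64 CPM in other barcodes and 16.3 CPM in T cells. Bank1, an adaptor of B cells, had 297 CPM, against 1.15 CPM in other barcodes and 0.361 CPM in T cells. Hvcn1, a proton channel, had 442 CPM, against 34.5 CPM in other barcodes and 3.61 CPM in T cells. The kinases Lyn and Syk had 358 and 137 CPM in the 50, against 21.0 and 5.42 CPM in T cells, but 322 and 40.6 CPM in all other barcodes. Blnk, the adaptor linking Syk to its targets, was likewise at 183 CPM against 17.7 CPM in T cells and 254 CPM in other barcodes. Grap, a lymphocyte adaptor, showed the reverse pattern, with 305 CPM against 9.79 CPM in other barcodes and 257 CPM in T cells.

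Of the B lineage transcription factors, 7 of 16 tested were higher and 1 lower than in all other kept barcodes, with a median log2 ratio of 1.72. Without the 4 barcodes it was 7 of 12 and 1, with a median of 2.88. Over all genes tested, 6.68% were higher and 8.50% lower, and without the 4 barcodes 7.83% and 11.0%. Ebf1 was found in 45 of the 50 and in no T cell, at 1045 CPM (877 to 1235) and 820 CPM in all 54, against 3.17 CPM in other barcodes. Ebf1 by library ran from 496 CPM in library 5 to 1759 CPM in library 6, and those 2 counting intervals did not overlap. A single barcode gave 17 of the 31 UMIs in library 6, and the intervals do not cover spread between cells. No difference between libraries is read from this. Pou2af1, a coactivator at immunoglobulin promoters, had 206 CPM against 0.0478 CPM in other barcodes, and Spib, an Ets factor of B cells, 198 CPM against 0.0171 CPM in other barcodes. Bach2 and Bcl11a, factors of naive B cells and of the lymphoid lineage, had 153 and 99.1 CPM, against 9.62 and 1.76 CPM in other barcodes. Bcl11a had 13 UMIs, too few to be tested. Foxp1 and Ikzf3 had 259 and 206 CPM, against 17.0 and 2.30 CPM in other barcodes. Pax5 had 68.6 CPM, 1 UMI in each of 9 cells. Klf2, a factor of quiescent circulating lymphocytes, was found in all 54, at 2508 CPM in the 50 and 1809 CPM in all 54, against 1809 CPM in T cells and 780 CPM in other barcodes. By library, Klf2 in the 50 was below T cells in libraries 1 and 2 and above them in libraries 3 to 6.

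The MHC class II list held the largest share of the B cells' transcripts among the lists of receptor, signalling, factor and presentation genes. It took 29650 CPM in the 50 B cells and 17508 CPM in all 54, against 1400 CPM in T cells and 21396 CPM in C1q-high barcodes. Within these sums the protease gene Ctss gave 1471 CPM in the 50 and 15915 CPM in C1q-high barcodes, and Cd74 gave 12564 and 618 CPM. In single cells of the 50 the list ran from 10544 to 54133 CPM, with a median of 30694 CPM. Against all other kept barcodes 6 of 12 tested genes were higher and 2 lower, with a median log2 ratio of 2.55. Without the 4 barcodes it was 6 of 11 and 2, with a median of 4.52. Against T cells 8 of 12 were higher and 0 lower, and without the 4 barcodes 9 of 10. Among all genes tested, 6.68% were higher and 8.50% lower than in other barcodes, and 6.97% and 4.31% against T cells. Without the 4 barcodes these shares were 7.83% and 11.0%, and 5.94% and 5.94%.

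The classical chains and the invariant chain were higher in B cells than in T cells, and 2 proteases were lower than in all other kept barcodes. Cd74 had 12564 CPM in the 50 (11965 to 13186), with 5 to 66 UMIs a cell, against 168 CPM in T cells and 466 CPM in other barcodes. RT1-Db1, the beta chain of RT1-D, had 5596 CPM against 130 CPM in T cells, and its alpha chain RT1-Da had 4582 CPM against 37.2 CPM in T cells. Both were found in all 50. Over all 54, Cd74 had 7162 CPM, RT1-Db1 3163 CPM and RT1-Da 2556 CPM. RT1-Ba and RT1-Bb, the chains of RT1-B, had 2493 and 541 CPM, against 43.7 and 3.97 CPM in T cells. RT1-DOa and RT1-DOb, which encode the modulator of peptide loading known from B cells, had 229 and 83.9 CPM, against 0.399 and 0.307 CPM in other barcodes, and RT1-DOa had 151 CPM without library 3. RT1-DMa and RT1-DMb, the peptide exchange factor that RT1-DO restrains, had 511 and 305 CPM, against 1239 and 535 CPM in other barcodes, log2 ratios of -1.26 and -0.79 that were not called. Ctss and Lgmn, proteases that cut the invariant chain and antigen, were lower, with 1471 and 122 CPM against 11004 and 798 CPM in other barcodes. Ctss was not lower than in T cells, which had 618 CPM, a log2 ratio of 1.24 that was not called.

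Ciita, the coactivator that works through the X and Y boxes, was found in 5 of the 50, at 38.1 CPM (12.4 to 89.0), against 0.498 CPM in other barcodes and 0.361 CPM in T cells, below the count needed for a test. Cd40, which receives help from T cells, had 137 CPM against 2.89 CPM in T cells and 29.9 CPM in other barcodes. The costimulatory ligands Cd80 and Cd86 had 1 UMI each in the 50. Of 9 class I presentation genes tested against other barcodes 0 were higher and 0 lower, where 6.68% and 8.50% of all genes tested were, and without the 4 barcodes 0 were higher and 1 lower. B2m, the light chain of class I, had 2958 CPM in the 50 against 7345 CPM in T cells and 3662 CPM in other barcodes.

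**Figure D3:**
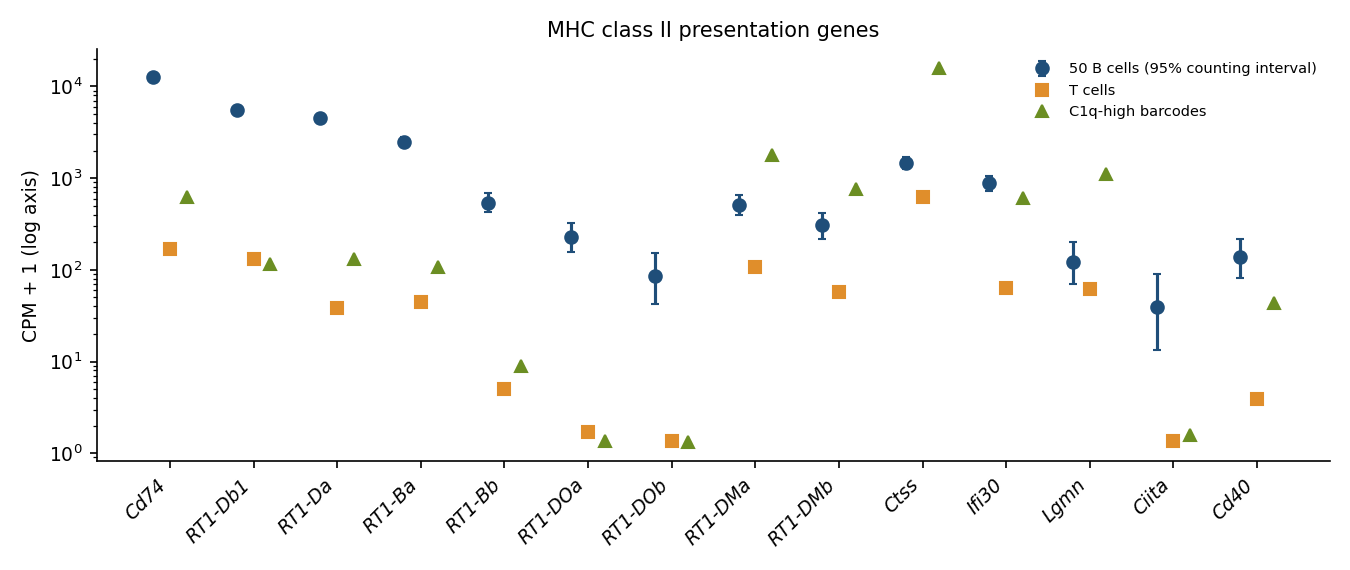
Levels of MHC class II presentation genes in CPM, with 1 added, on a log axis, for the 50 B cells with 95% Poisson intervals, T cells and C1q-high barcodes. Cd74, RT1-Da, RT1-Db1, RT1-Ba and RT1-Bb are highest in B cells, while RT1-DMa, RT1-DMb, Ctss and Lgmn are highest in C1q-high barcodes.

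Progenitor and plasma cell genes depended on single barcodes. Of 8 progenitor genes tested over the 54, 5 were higher than in other barcodes, and without the 4 barcodes 0 of 1 was higher and 1 lower. Vpreb3, which is also expressed by mature B cells, was found in 12 of the 50 and in 1.12% of T cells, at 130 CPM against 0.840 CPM in other barcodes. Of 12 plasma cell genes tested over the 54, 3 were higher and 0 lower, and without the 4 barcodes 1 of 3 was higher and 1 lower. Jchain had 4348 CPM over the 54 and 160 CPM over the 50, where 11 cells had 1 to 4 UMIs. Mzb1 was found in 5 of the 50, and 4 of these 5 had Jchain too. Xbp1, the factor of the secretory program, was found in 2 of the 50 and in 17.2% of T cells. Sdc1, the surface marker of plasma cells, had 0 UMIs in all 54, which allows up to 12.3 CPM over their summed UMIs. The limit is higher in any single barcode, also in the pair rich in transcripts of antibody secretion. The germinal centre list had 1 of 6 tested genes higher over the 54 and 2 of 6 over the 50, Pou2af1 and Il21r, the receptor for interleukin 21, and Bcl6 was found in 2 of the 54. For all genes tested, 6.68% were higher and 8.50% lower over the 54, and 7.83% and 11.0% over the 50.

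Receptors that guide lymphocytes into and through lymphoid tissue were found in many of the cells. Of 13 homing and adhesion genes tested against other barcodes, 6 were higher and 2 lower, with a median log2 ratio of 1.92. Without the 4 barcodes it was 5 of 9 and 2, with a median of 2.64. Over all genes tested, 6.68% were higher and 8.50% lower, and without the 4 barcodes 7.83% and 11.0%. Ccr7, which guides lymphocytes to T cell zones, was found in 28 of the 50, at 435 CPM (329 to 563), against 2.57 CPM in other barcodes and 204 CPM in T cells. Library 3 gave 39 of its UMIs, and without that library Ccr7 had 194 CPM in 31 B cells against 131 CPM in T cells. Cxcr4, the receptor for the stromal chemokine Cxcl12, was found in 34 of the 50, at 618 CPM, against 13.8 CPM in other barcodes and 403 CPM in T cells. Library 3 gave 39 of the 81 UMIs of Cxcr4. Its level was above that of T cells in libraries 1, 2, 3 and 5 and below it in libraries 4 and 6.

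Ccr6, a receptor for the chemokine Ccl20, was found in 25 of the 50, at 305 CPM (218 to 415), against 5.13 CPM in other barcodes and 23.5 CPM in T cells. Cnr2, a cannabinoid receptor abundant in B cells, had 168 CPM, against 18.6 CPM in other barcodes and 2.53 CPM in T cells. Selplg, an adhesion ligand of leukocytes, was lower, with 130 CPM against 1349 CPM in other barcodes. Cxcr5, the receptor for entry into B cell follicles, Cxcr3 and Cxcr6 had 0 UMIs in all 54, which allows up to 12.3 CPM. Cxcr3 and Cxcr6 had 122 and 226 CPM in T cells.

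Of the genes of memory, B1 and marginal zone B cells, 3 of 7 tested were higher over the 54 and 2 lower, and without the 4 barcodes 3 of 6 and 2. Over all genes tested, 6.68% were higher and 8.50% lower, and without the 4 barcodes 7.83% and 11.0%. Plac8 was found in 45 of the 50, at 1647 CPM against 90.3 CPM in other barcodes and 824 CPM in T cells. Cd38, a surface enzyme, had 290 CPM against 23.7 CPM in other barcodes and 52.4 CPM in T cells. Cr2, the complement receptor CD21, was found in 5 of the 50, with Fcer2 in 2 of these. Cd27, a memory marker in human B cells, had 0 UMIs in the 54 and 179 CPM in T cells.

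Among survival genes, 2 of 9 tested were higher and 1 lower, and without the 4 barcodes 2 of 5 and 1. Over all genes tested, 6.68% were higher and 8.50% lower, and without the 4 barcodes 7.83% and 11.0%. Tnfrsf13c, the receptor for the survival factor BAFF, was found in 17 of the 50, at 191 CPM against 5.75 CPM in other barcodes and 4.33 CPM in T cells. Tnfrsf13b, the related receptor TACI, had 91.5 CPM against 2.47 CPM in other barcodes and 1.08 CPM in T cells. Of the cytokine genes, 1 of 10 tested was higher and 5 lower, and without the 4 barcodes 1 of 5 and 3. Ltb, which maintains lymphoid tissue, had 404 CPM against 22.0 CPM in other barcodes and 369 CPM in T cells. By library it was above T cells in libraries 1, 3 and 6 and below them in libraries 2, 4 and 5. Library 3 had 522 against 251 CPM, so no order of Ltb against T cells is read. Ccl4 had 274 CPM, against 1635 CPM in other barcodes and 3633 CPM in T cells. Il6 and Il10 had 0 UMIs in all 54, and Tnf had 0 against 149 CPM in other barcodes.

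Of the activation and immediate early genes, 2 of 22 tested were higher and 1 lower, with a median log2 ratio of -0.35. Without the 4 barcodes 2 of 19 were higher and 2 lower, with a median of -0.40. Of all genes tested, 6.68% were higher and 8.50% lower, and without the 4 barcodes 7.83% and 11.0%. Cd69, an early activation and retention marker, was found in 29 of the 50 and in 66.0% of T cells, at 587 CPM against 18.6 CPM in other barcodes and 508 CPM in T cells. Without library 3, Cd69 had 388 CPM in B cells against 500.3 CPM in T cells, so its order against T cells turned. Btg1, which restrains growth, had 2775 CPM against 543 CPM in other barcodes and 2170 CPM in T cells. Rgs1 was lower, with 30.5 CPM against 463 CPM in other barcodes and 409 CPM in T cells. Fos and Jun had 1708 and 1616 CPM, against 2253 and 3635 CPM in other barcodes, and were not called. Without library 3, Jun had 1034 CPM. These genes also respond to tissue dissociation, and its part in their values was not tested.

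Interferon-induced, p53 target and cell cycle genes were too few among those tested to set against the 6.68% higher and 8.50% lower of all genes. Of the interferon-induced genes, 0 of 4 tested were higher or lower over the 54, and without the 4 barcodes 1 of 3 was higher, Ly6e, and 1 lower, Bst2. Of the p53 target genes, 1 of 6 tested was higher over the 54, Pmaip1, and without the 4 barcodes 0 of 3. Cdkn1a, which stops the cell cycle, had 8 UMIs in 2 of the 54 cells and 0 in the 50, against 35.0 CPM in T cells. Cell cycle genes had 0 of 5 tested higher, and without the 4 barcodes 0 of 3.

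**Figure D4:**
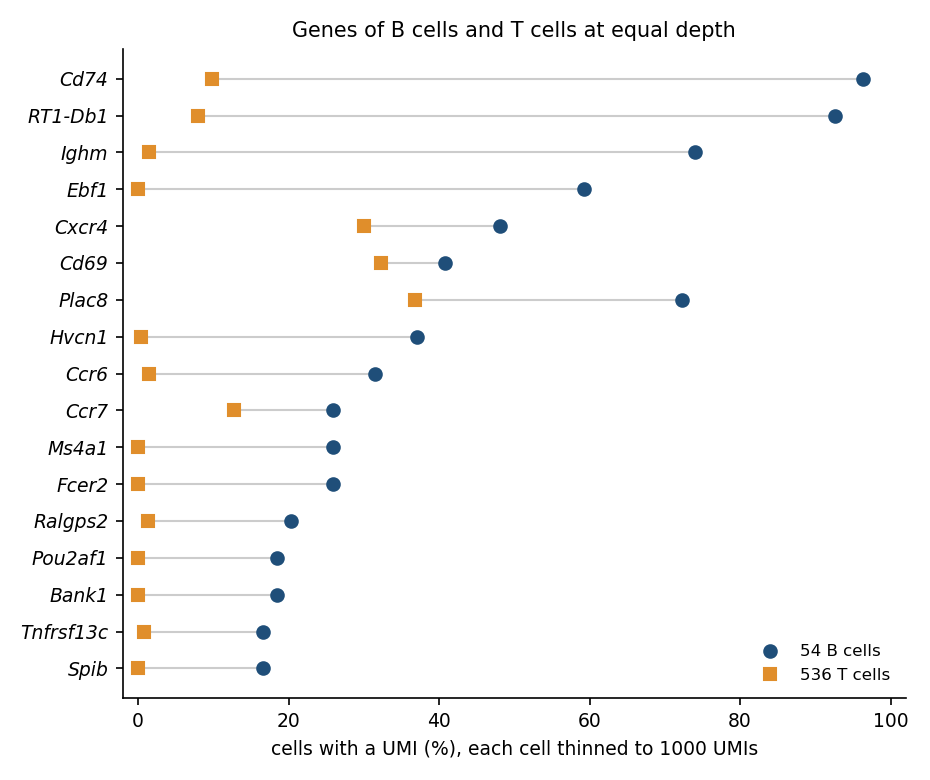
Share of cells with at least 1 UMI of each gene, in percent, after each cell was thinned to 1000 UMIs, for the 54 B cells and the 536 T cells. Cd74 is in 96.3% of B cells against 9.89% of T cells, and Ebf1 in 59.3% against 0.

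Since B cells had fewer UMIs than T cells, shares were also taken with each cell thinned to 1000 UMIs. Ighm was found in 74.1% of thinned B cells against 1.49% of thinned T cells, and in 92.6% against 6.72% before thinning. Fcmr was found in 40.7% against 0.187%, and in 75.9% against 0.746% before thinning. Cxcr4 was found in 48.1% against 30.0%, and Klf2 in 79.6% against 64.6%. The order of B cells and T cells turned with thinning for some genes. Cd69 was found in 40.7% of thinned B cells against 32.3% of thinned T cells, but in 59.3% against 66.0% before thinning. Xbp1 was found in 5.56% against 3.36%, and in 11.1% against 17.2% before thinning. No order is read from the shares of these 2 genes.

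Levels by library rest on 4 to 19 of the 50 cells in each. Cd74 in the 50 ran from 8029 CPM in library 5 to 14727 CPM in library 3, and RT1-Da from 2661 CPM in library 5 to 5768 CPM in library 1. Library 5 was lowest for both, and its counting interval for Cd74, 6892 to 9299 CPM, lay below those of libraries 1 to 4. Jund, a subunit of the AP-1 factor, had 6006 CPM in library 3 and 920 to 2024 CPM in the other 5, and the interval of library 3, 5255 to 6834 CPM, lay above all others. T cells of library 3 also had the highest Jund level, 4059 CPM against 1612 to 2662 CPM in the other libraries. Ccr7 had 1018 CPM in library 3, where 16 of 19 B cells had it, and 77.3 to 418 CPM elsewhere. In T cells Ccr7 was again highest in library 3, at 391 CPM. Ms4a1 ran from 107 CPM in library 2, on 3 UMIs, to 1037 CPM in library 5, on 23 UMIs. Single barcodes gave 11 and 6 of those 23, so no difference between libraries is read. Library 3 gave 19 of the 50 B cells, and without it Jund had 1540 CPM in B cells against 2230 CPM in T cells, where with it Jund had 2844 CPM in B cells against 2740 CPM in T cells.

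**Figure D5:**
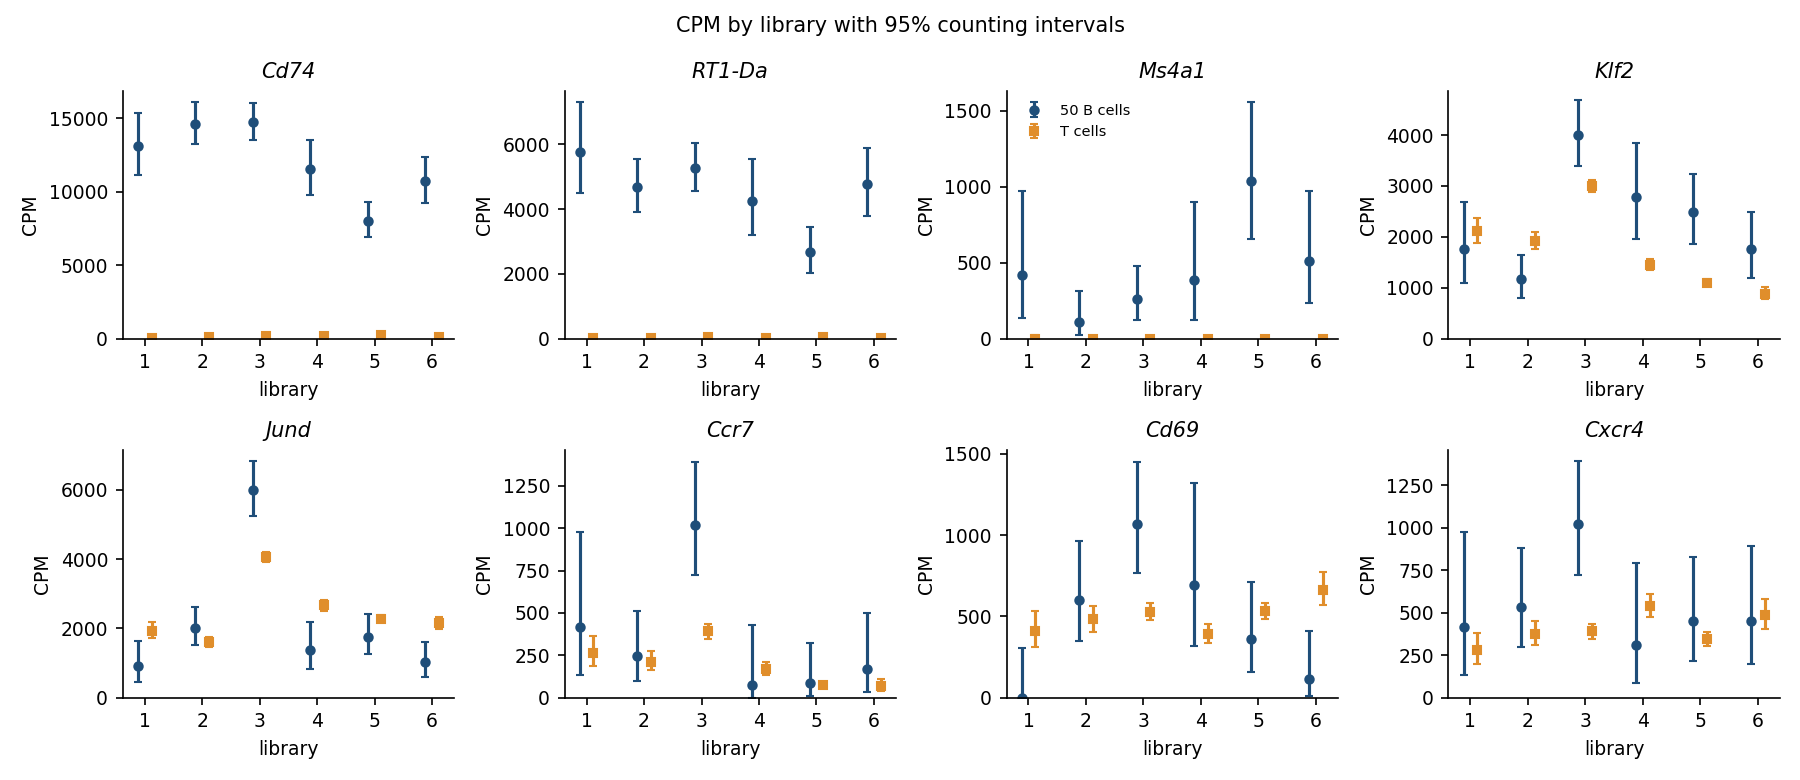
Levels of 8 genes in CPM in each of the 6 libraries, for the 50 B cells and for T cells, with 95% Poisson intervals that cover counting error only. Jund in library 3 is at 6006 CPM in B cells and 4059 CPM in T cells, above the other libraries in both.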

How the data were processed

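The authors deposited 1 matrix of UMI counts per gene and barcode, made with Cell Ranger 7.0.0 per the file headers. The submitters' processing notes name mm10, although the gene identifiers are those of rat. Which annotation was used, whether intronic reads counted and whether depth was equalised is not given in the sources used here. The matrix holds 329205505 UMIs over 30452 gene rows and 58078 barcodes in 6 libraries of 46853113 to 62094407 UMIs. Kept barcodes had a median of 4405.5 to 6893 UMIs by library.

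Libraries could not be tied to labelled samples, so the planned comparisons of irradiated with control rats were not run, and no replicate spread or p-value is given. The members, gene lists and rules were chosen with earlier results of these data known. T cells had at least 2 Cd3 UMIs, no Cd79 UMI and at most 3 C1q UMIs per 1000. C1q-high barcodes had more than 3. UMIs were summed over cells and divided by their total to give CPM, with exact Poisson 95% intervals, and shares have exact Clopper-Pearson intervals. Both cover counting error only. Log2 ratios had 10 CPM added to each side. A gene was tested with 20 UMIs in the B cells, or an equal CPM in the cells compared, and called at a log2 ratio of 2 in either direction. The calculation was tested on simulated data. A count of 0 is given the limit of 3 counts. Doublets were called with scrublet (0.8% per 1000 barcodes) and none were removed. Genes named are the markers, the genes of the rule, the highest in level or ratio of each list and of the whole table, and the leading genes of the 4 barcodes that stand apart. Others were named after their values were seen. Promoters come from RefSeq on GRCr8. The tools were scanpy 1.11.5 with NumPy 2.4.6, pandas 2.3.3, matplotlib 3.10.9 and SciPy 1.17.1, under Python 3.11.15. Alternatives changed the filters, the rule, the added CPM and the libraries and barcodes included. Some genes of the lists are counted but not reported here by name.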

Additional observations from a re-analysis of the deposited data

How the results depend on the processing

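No paired analysis was possible because no library could be tied to a labelled sample. The share of B cells, 0.115%, ran from 0.0950 to 0.130% with each library left out, and from 0.0873% (at most 1 C1q UMI per 1000, 41 cells) to 0.132% (at least 2 Cd79 UMIs, 62 cells) under the other settings. Against all other kept barcodes, 165 genes were higher and 210 lower. With each library left out, 104 to 165 were higher and 177 to 223 lower, the lowest count of higher genes, 104, without library 5. Without the 3 barcodes over 10000 UMIs 100 were higher, without the 4 that stand apart 97 were higher and 136 lower, and with no filter on low genes 262 and 318. The 3 barcodes and the 4 were set after the data were seen.

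Of the log2 ratios of 107 genes over other barcodes, 75 moved beyond their counting interval with each barcode weighted equally, 68 without the 4 barcodes, 70 without the 3, 54 with 1 CPM added and 46 with at most 10% mitochondrial UMIs. Neither these moves nor a change of sign applied to 29 ratios without the 4 barcodes and 30 without the 3. Others, counted apart from those that moved, changed sign: 10 without the 4 barcodes, 7 without the 3 and 7 without library 5, among other settings. With at least 2 Cd79 UMIs, Ccl5 came to 2.76 and Nkg7 to 2.21. With at most 1 C1q UMI per 1000, ENSRNOG00000066281 came to -0.096. With each library left out, the lowest value being that without library 5, Cd93 ran from -0.15 to 4.98, Col4a1 from -0.39 to 5.90, Dntt from -0.13 to 2.49, Itm2a from -0.80 to 5.12, Lef1 from -0.76 to 2.45, Slco1a4 from -0.50 to 3.86 and Vpreb2 from -0.0048 to 3.50. Without the 3 barcodes, Cd93 came to -0.20, Col4a1 to -0.51, ENSRNOG00000066281 to -0.0044, Ighg1 to -0.0030, Itm2a to -1.53, Slco1a4 to -0.62 and Tnfrsf17 to -0.12. Without the 4, these were the same, with Dntt at -0.13, Lef1 at -0.82 and Vpreb2 at -0.0054. The cause of these changes was not tested. Depth limits genes under 20 UMIs, with 54 cells and 243775 UMIs in all.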
